A study of Mus musculus with 68 samples.

Results

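Interferon-stimulated genes are transcripts that cells raise when an interferon binds its receptor. A list of 50 such mouse genes was followed through RNA sequencing of 17 cultures of long-bone mesenchymal stromal cells, the plastic-grown progenitors of bone, cartilage and marrow stroma. The genes, listed by symbol, span the factors, sensors, effectors and membrane proteins of the response. All 50 matched 1 row each among the 27179 rows of the count table, and all 50 passed the filter on low counts, which kept 14897 rows. The 2 genotypes were Ezh2fl/+ (Het), with 1 floxed allele of the gene for the histone H3 lysine 27 methyltransferase of Polycomb repressive complex 2, and Ezh2+/+ (WT). Both genotypes carried Prrx-1-Cre (also written Prxx-1-Cre in the labels), a recombinase active in limb mesenchyme, so the controls express Cre as well. The groups were Het at 12 months (Het 12M, 6 cultures: S1, S9, S11, S15, S16 and S17), WT at 12 months (WT 12M, 4 cultures: S2, S6, S7 and S13), Het at 3 months (Het 3M, 3 cultures: S8, S10 and S14) and WT at 3 months (WT 3M, 4 cultures: S3, S4, S5 and S12). The labels do not say whether a culture came from 1 mouse, so p-values measure the spread between cultures. Depth ran from 13687876 to 28597221 counts per culture. Levels are library-scaled counts (CPM) adjusted by trimmed mean of M values (TMM), which do not correct for transcript length.

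Type I interferons signal through the receptor chains Ifnar1 and Ifnar2 and the kinases Jak1 and Tyk2, and a complex that includes Stat2 and Irf9 then binds a promoter sequence called the interferon-stimulated response element (ISRE). Interferon gamma acts largely at other promoter sequences, called gamma-activated sites (GAS). The induced proteins sense foreign nucleic acids, block viral translation and budding, modify proteins with the ubiquitin-like Isg15, and feed back on the pathway itself. Stromal cells of bone marrow carry these receptors and are known to respond to interferons.

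Several cultures stood apart. The mitochondrial transcript COX1 stood at 494 CPM in Het 12M S15 and at 4289 to 9449 CPM in the other 16 cultures, and S15 also had the lowest sum over 12 stromal markers, at 6541 CPM against 10198 to 33830 CPM. Het 12M S9 had a sum of 37396 CPM over 12 macrophage and myeloid markers, against at most 2840 CPM in the others, and WT 12M S6 had 1167 CPM over 8 Schwann and neural crest markers, against at most 112 CPM. The stromal markers Prrx1, Pdgfra, Col1a1 and Col1a2 were present in all 17 cultures, and lymphocyte markers summed to at most 0.47 CPM. By label, S17, S2, S13, S8, S10, S5 and S12 came from males and the others from females. In WT 12M, Xist and Y-linked transcripts went against the labelled sex in S2, S6 and S13 and both were present in S7, so the labelled sex is no term of the main fit. In Het 3M, S14 was the only culture labelled female, with 632 CPM of Xist before TMM scaling against 0.50 and 0.051 CPM in S8 and S10. Sex and culture thus cannot be told apart where S14 differs from S8 and S10. In bulk RNA such as this, fewer cells of a type and less RNA per cell cannot be told apart. Het 3M S8 and S10 were the closest 2 cultures, with a chi-square per degree of freedom of 17.4 against 38.6 for the next pair and at most 1.09 between technical replicates of 1 culture. Ezh2 itself lay between 8.70 and 25.5 CPM in Het 12M, between 7.73 and 35.4 CPM in WT 12M, between 8.51 and 12.8 CPM in Het 3M and between 9.10 and 14.3 CPM in WT 3M. For Ezh2, Het minus WT was fitted at -0.16 ± 0.36 (SE, log2) at 12 months and -0.19 ± 0.43 at 3 months, with an edgeR adjusted p of 0.924 and 1.00. Reads from exons that are not floxed count here too, so recombination cannot be read from these levels.

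The promoters of some members are shown because the list is defined by a response that acts at them. RefSeq windows on GRCm38.p6 from 250 bases before to 50 bases after the start site were present for 39 of the 50 members. ISRE was searched as GAAANNGAAA on both strands (TTTCNNTTTC on the other), counting overlapping matches, and GAS as TTCNNNGAA, which reads the same on both strands. ISRE letters were found at 20 of the 39 members (51.3%), against 725 of 18458 genes of the count table with a window (3.93%). GAS letters were found at 10 of the 39 (25.6%), against 1665 of the 18458 (9.02%). A match is a run of letters and does not show that a factor binds there. The 160 bases before an annotated start site of 7 members follow, 5′ to 3′ on the gene's strand, with ISRE matches in capitals. Isg15 lies at chr4:156200819-156200978, minus strand, Ifit1 at chr19:34640729-34640888, plus strand, Bst2 at chr8:71537473-71537632, minus strand, and Irgm1 at chr11:48871421-48871580, minus strand. Gbp2 lies at chr3:142620503-142620662, plus strand, Irf7 at chr7:141266425-141266584, minus strand, and Samd9l at chr6:3399572-3399731, minus strand.
Isg15: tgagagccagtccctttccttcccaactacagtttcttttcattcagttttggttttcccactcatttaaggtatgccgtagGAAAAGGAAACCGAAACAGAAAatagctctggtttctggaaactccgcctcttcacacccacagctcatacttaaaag
Ifit1: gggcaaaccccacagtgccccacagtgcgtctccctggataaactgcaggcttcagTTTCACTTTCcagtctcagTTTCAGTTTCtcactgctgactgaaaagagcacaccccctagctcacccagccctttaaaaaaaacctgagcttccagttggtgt
Bst2: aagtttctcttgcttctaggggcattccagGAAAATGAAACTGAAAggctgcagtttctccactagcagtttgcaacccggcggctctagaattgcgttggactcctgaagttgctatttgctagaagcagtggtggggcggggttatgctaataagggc
Irgm1: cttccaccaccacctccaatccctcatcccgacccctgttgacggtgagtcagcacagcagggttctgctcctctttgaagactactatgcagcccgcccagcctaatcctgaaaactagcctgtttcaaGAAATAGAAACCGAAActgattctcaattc
Gbp2: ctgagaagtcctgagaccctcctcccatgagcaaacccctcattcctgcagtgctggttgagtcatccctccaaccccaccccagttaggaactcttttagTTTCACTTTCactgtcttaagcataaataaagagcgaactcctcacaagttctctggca
Irf7: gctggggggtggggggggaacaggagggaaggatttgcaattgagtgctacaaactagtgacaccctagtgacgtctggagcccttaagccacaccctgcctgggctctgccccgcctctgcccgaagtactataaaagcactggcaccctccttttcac
Samd9l: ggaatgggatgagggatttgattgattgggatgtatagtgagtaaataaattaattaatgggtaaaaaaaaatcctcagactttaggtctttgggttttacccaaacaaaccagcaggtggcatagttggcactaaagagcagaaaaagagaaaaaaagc
Isg15 has 3 overlapping ISRE matches in 1 run, Ifit1 has 2 separate ones, Bst2 and Irgm1 have 2 that overlap, and Gbp2 has 1. The window of Irf7 and that of Samd9l hold none of these letters. The start site used for Irf7 lies inside the gene's RefSeq extent, which reaches 141266499, so part of its printed stretch lies within the gene. The window ends at 141266674, so fewer than 250 bases before the outer end of Irf7 were searched. The 2 ISRE matches of Ifitm3 begin at bases 3 and 20 after its start site and are not printed.

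The members were highest in a few cultures spread over 3 of the 4 groups. Averaged over the 50 members as mean log2 CPM, Het 12M S15 was highest of the 17 cultures at 6.55, followed by Het 3M S14 at 5.21, WT 12M S2 at 5.03, Het 12M S9 at 4.71, WT 12M S7 at 4.62 and Het 12M S17 at 4.50. The lowest were WT 3M S12 at 2.94, WT 12M S6 at 2.96, Het 3M S8 at 3.13 and Het 12M S11 at 3.23. The group means were 4.38 ± 1.21 (SD) over the 6 Het 12M cultures, 3.98 ± 1.00 over the 4 WT 12M cultures, 3.88 ± 1.15 over the 3 Het 3M cultures and 3.59 ± 0.48 over the 4 WT 3M cultures. The pooled SD within groups was 1.02 on this log2 scale, wider than the distance between any 2 group means. Within Het 12M, WT 12M and Het 3M the highest culture was over 2 log2 units above the lowest. The members took 1.33% of all counts in S15 and between 0.122% and 0.383% in the other 16.

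**Figure D1:**
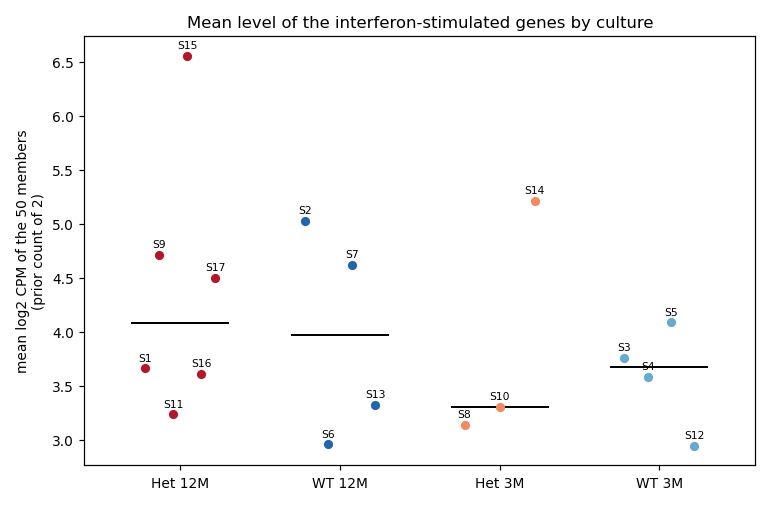
Mean log2 CPM of the 50 members (vertical axis, prior count of 2) in each culture of the 4 groups, with 1 labelled point per culture and the group median as a line. S15 lies at 6.55, above all other cultures, and S14 lies at 5.21, above S8 and S10 of its own group.

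**Figure D2:**
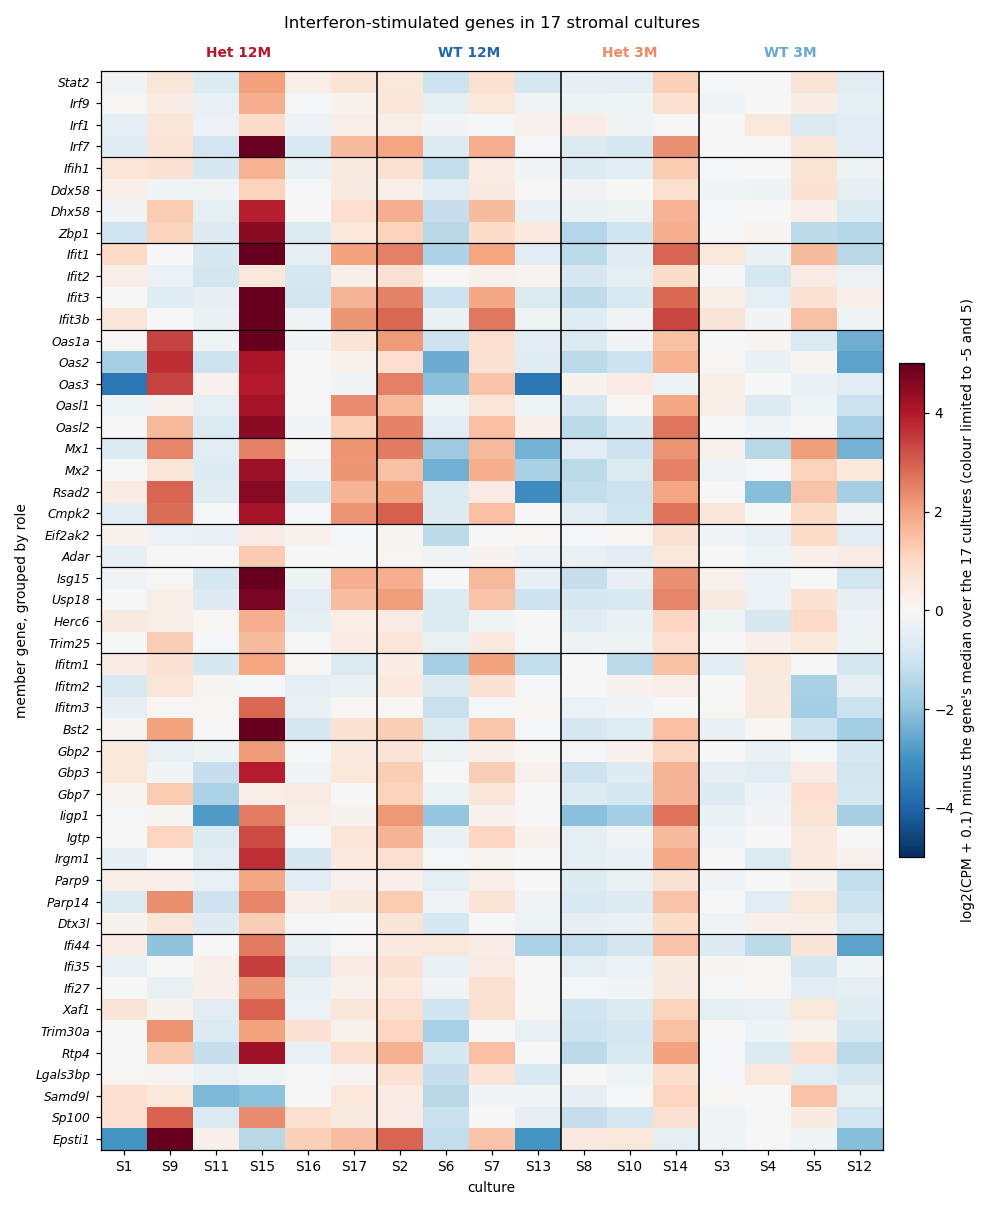
Each of the 50 members (rows, grouped by role with black lines) in each of the 17 cultures (columns, by group), as log2(CPM + 0.1) minus the gene's median over the cultures, with colours limited to -5 and 5. The S15 column is red for most members and blue for Samd9l and Epsti1, and the S14, S2, S7 and S17 columns are red over the IFIT rows, while S9 is red over Oas1a, Oas2, Oas3, Sp100, Trim30a, Parp14 and Epsti1, among others.

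Het 12M S15 held the highest level of 38 of the 50 members. Its level was above the median of the 16 other cultures for 46 members, by more than 2-fold for 42 and by more than 10-fold for 21, with a median of 7.15-fold. These counts were made for the members alone, with no like share over all genes, and S15 also stood apart in COX1 and stromal markers. The 20 members with ISRE letters in their window had a median of 11.3-fold, ranging from 0.944 to 82.6, and the 19 with a window but no such letters had a median of 3.81-fold, ranging from 0.239 to 32.2. For GAS letters the medians were 5.02-fold for the 10 members with them and 5.33-fold for the 29 with a window but no such letters. Both comparisons are descriptions, since the windows cover a short stretch and 11 members have none.

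Among the factors that switch the response on, Irf7, which amplifies type I interferon production, varied most. Gene coordinates here and further on are those of RefSeq on GRCm38.p6. Irf7 (chromosome 7, 141263183 to 141266499) ranged from 5.64 to 339 CPM in Het 12M, with a median of 12.3, and had 42.9, 6.96, 38.6 and 10.1 CPM in WT 12M S2, S6, S7 and S13. It had 6.75, 5.91 and 54.3 CPM in Het 3M S8, S10 and S14, and 10.96, 11.1, 16.8 and 7.46 CPM in WT 3M S3, S4, S5 and S12. S15 stood at 339 CPM, 6.25-fold the level of the highest of the 16 other cultures, and all pairs of groups overlapped. Stat2 and Irf9, which bind ISRE together in a complex, had 190 and 161 CPM in S15, or 4.34-fold and 3.62-fold the median of the others. Irf1, an activator induced chiefly by interferon gamma, had 47.7 CPM in S15, 1.99-fold the median of the others, and was 0.94-fold in S14 relative to S8 and S10.

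The sensors followed the same cultures to unequal degrees. Zbp1, which senses nucleic acids in the Z form, had 121 CPM in S15 and 28.6-fold the median of the 16 others. Dhx58 (LGP2), a helper of the RNA helicase sensors, had 178 CPM and 15.4-fold. The helicases Ifih1 (MDA5) and Ddx58 (RIG-I) were at 54.4 and 184 CPM in S15, or 3.43-fold and 2.24-fold. Ddx58 was also high in Het 3M S14 at 146 CPM and in WT 3M S5 at 144 CPM.

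The IFIT genes, whose products bind foreign RNA and hold back its translation, lie in a cluster on chromosome 19. Ifit1 (34640889 to 34650009) ranged from 18.9 to 1067 CPM in Het 12M, with a median of 49.1, and had 190, 11.3, 129 and 23.0 CPM in WT 12M S2, S6, S7 and S13. It had 12.9, 21.7 and 246 CPM in Het 3M S8, S10 and S14, and 48.8, 26.0, 99.0 and 12.6 CPM in WT 3M S3, S4, S5 and S12. S15 was highest, S14, S2, S17 and S7 came next, and the lowest culture of each group lay between 11.3 and 18.9 CPM. Ifit3 and Ifit3b had 868 and 182 CPM in S15 and 201 and 51.2 CPM in S14, but 51.2% and 45.0% of their 50-base stretches occur in another gene's transcripts, so reads could be split between them. Ifit2, beside them on the chromosome, was at 30.2 CPM in S15 and 1.51-fold the median of the others, below S14 at 39.2 CPM and S2 at 35.2 CPM.

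The OAS family is named for enzymes that make the oligoadenylate activators of RNase L. Its genes Oas1a, Oas2 and Oas3 added Het 12M S9 to the high cultures. Oas1a (chromosome 5, 120896256 to 120907544) had 107 CPM in S15 and 25.3 CPM in S9, and the other 15 cultures lay between 0.35 and 10.6 CPM. Oas2 had 40.5 CPM in S15 and 30.6 CPM in S9, and Oas3 had 19.2 and 12.8 CPM. S9 was the culture with the most macrophage marker RNA. Oasl2 had 305 CPM in S15, 84.9 CPM in S14, 74.5 CPM in S2 and 40.5 CPM in S9, and Oasl1, which in mice restrains Irf7 translation, had 11.1 CPM in S15 and at most 3.13 CPM elsewhere. Of the stretches of Oas1a, 57.6% are shared with another gene's transcripts, most with Oas1g.

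Mx1, Mx2, Rsad2 and Cmpk2 were at a few CPM or less in most cultures. Mx1, an antiviral dynamin-like GTPase that is disrupted in many inbred strains, had 2.85 CPM in S15 and 3.02 CPM in S2, and no count in S13 or S12. Mx2 had 34.3 CPM in S15 against at most 10.05 CPM in the others. Rsad2 (viperin) makes an antiviral nucleotide, and its neighbour Cmpk2 is a mitochondrial nucleotide kinase. They had 30.0 and 24.1 CPM in S15 and 9.58 and 9.23 CPM in S9. WT 12M S2 had 5.17 and 10.5 CPM, and Het 3M S14 had 4.91 and 8.73 CPM.

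Isg15, a ubiquitin-like protein that is conjugated to other proteins, had the largest excess in S15. Isg15 (chromosome 4, 156199424 to 156200818) ranged from 7.32 to 1022 CPM in Het 12M, with a median of 12.7, and had 46.8, 13.1, 39.9 and 9.67 CPM in WT 12M S2, S6, S7 and S13. It had 5.81, 9.91 and 63.5 CPM in Het 3M S8, S10 and S14, and 14.99, 10.7, 13.1 and 6.91 CPM in WT 3M S3, S4, S5 and S12. S15 had 16.1-fold the level of the highest of the other 16 cultures, and the 5 other Het 12M cultures lay within the range of WT 12M or just under it. Usp18, which removes Isg15 and dampens the receptor, had 162 CPM in S15 and 33.6 CPM in S14. Herc6, the ligase for Isg15 in mice, had 37.7 CPM and Trim25, a ligase that activates RIG-I, had 120 CPM in S15, 3.81-fold and 2.98-fold the median of the others.

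The 2 members that act on double-stranded RNA differed less between cultures. Eif2ak2 (PKR), the kinase that stops translation, was highest in WT 3M S5 at 117 CPM, followed by Het 3M S14 at 102 CPM and S15 at 80.6 CPM. Adar, which edits adenosine to inosine, had 113 CPM in S15 and between 30.5 and 66.2 CPM in the other 16.

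The membrane proteins that restrict viral entry and release did not share 1 pattern. Ifitm3 (chromosome 7, 141009590 to 141010744) ranged from 336 to 3319 CPM in Het 12M, with a median of 478, and had 488, 209, 428 and 490 CPM in WT 12M S2, S6, S7 and S13. It had 370, 408 and 453 CPM in Het 3M S8, S10 and S14, and 490, 639, 141 and 216 CPM in WT 3M S3, S4, S5 and S12. S15 had 5.20-fold the level of the next culture, but S14 had 1.16-fold the median of S8 and S10, and S5, high for Ifit1, had the lowest Ifitm3 of all. Bst2 (tetherin) had 1419 CPM in S15, 155 CPM in S9 and 108 CPM in S14. Ifitm2 was at 292 CPM in S15, 0.944-fold the median of the others, and Ifitm1 at 10.1 CPM. The exons of Ifitm2 overlap Gm45717 over 40.9% of their length, and the kit does not mark strand. Per kilobase of exon, Ifitm3 and Ifitm2 had the highest median levels of the 49 members with a length in the GENCODE annotation, at 668 and 466 CPM per kilobase, and Oas3 had the lowest, at 0.16 CPM per kilobase.

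The interferon-inducible GTPases, which attack the vacuoles of intracellular pathogens and answer strongly to interferon gamma, included members that were higher in S14 than in S15. Gbp2 (chromosome 3, 142620663 to 142638008) ranged from 24.5 to 142 CPM in Het 12M, with a median of 37.0, and had 50.1, 27.2, 39.8 and 34.1 CPM in WT 12M S2, S6, S7 and S13. It had 30.0, 37.2 and 67.9 CPM in Het 3M S8, S10 and S14, and 32.1, 25.2, 29.9 and 18.1 CPM in WT 3M S3, S4, S5 and S12. Each of the 3 Het 3M cultures lay above 3 of the 4 WT 3M cultures, but S8 lay under S3, so the groups overlapped. Iigp1 was higher in S14 at 71.7 CPM than in S15 at 63.6 CPM, 25.1-fold the median of S8 and S10, and Gbp7 was highest in S14 at 33.3 CPM with 12.9 CPM in S15. Irgm1 had 655 CPM in S15 and 191 CPM in S14, Gbp3 182 and 38.9 CPM, and Igtp 83.4 and 26.3 CPM.

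Parp9 and its partner Dtx3l, which together modify proteins after interferon, had 112 and 50.8 CPM in S15, 3.88-fold and 2.36-fold the median of the others. Parp14, an ADP-ribosyltransferase, had 79.2 CPM in S15 and 72.8 CPM in S9. In the remaining group, Rtp4, a receptor chaperone, Ifi35, Ifi44, Xaf1, which binds a caspase inhibitor, and Ifi27 were each highest in S15, at 281, 357, 131, 121 and 789 CPM. Trim30a was higher in S9 at 69.8 CPM than in S15 at 58.7 CPM.

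**Figure D3:**
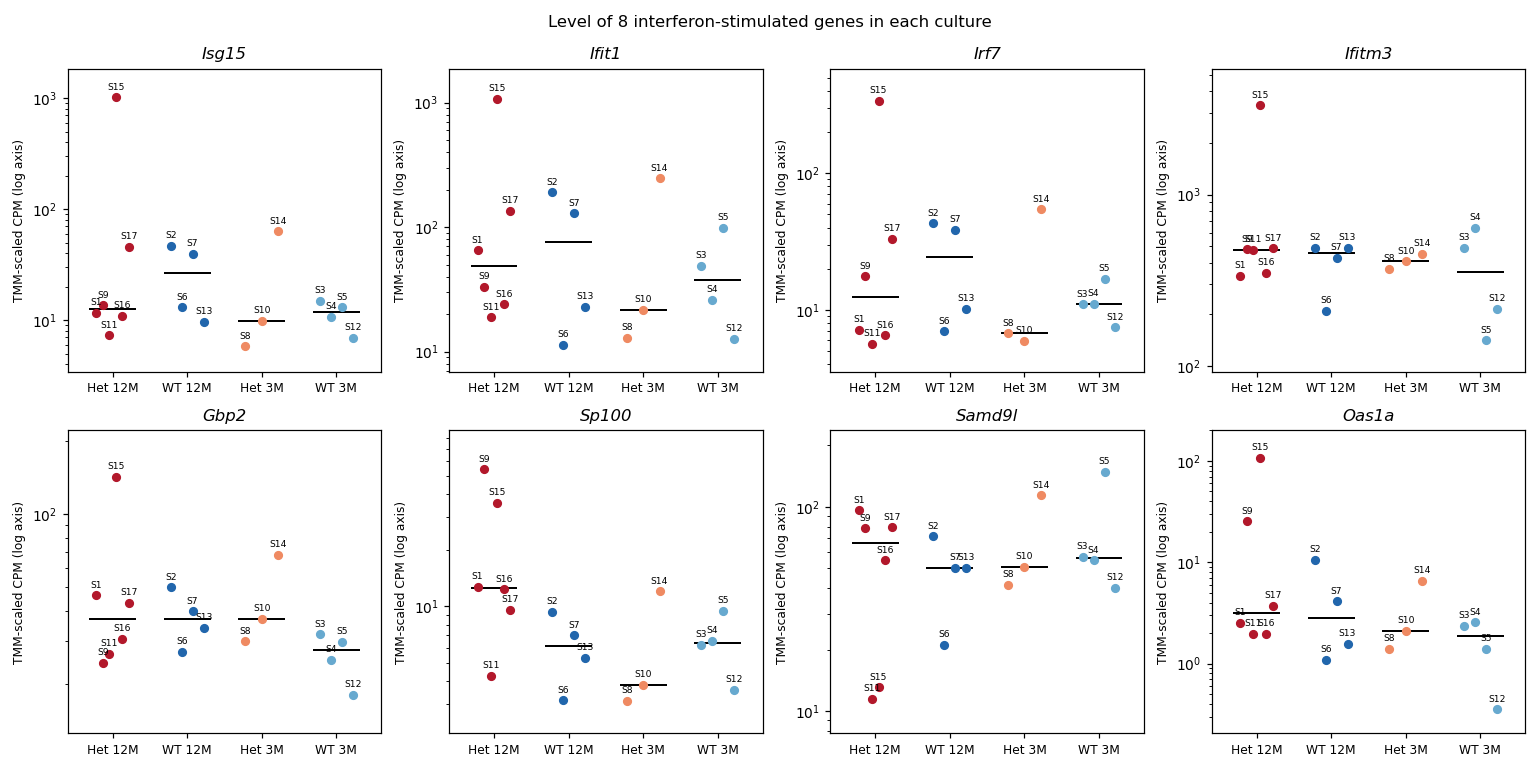
TMM-scaled CPM (vertical axes, logarithmic) of 8 members in each culture of the 4 groups, with 1 labelled point per culture and the group median as a line. S15 is the highest point for Isg15, Ifit1, Irf7, Ifitm3, Gbp2 and Oas1a, S9 for Sp100 and S5 for Samd9l.

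Not every member was high in S15. Samd9l, a growth-restraining antiviral protein, had 13.1 CPM in S15, 0.24-fold the median of the others, and 11.5 CPM in Het 12M S11, against 149 CPM in WT 3M S5 and 114 CPM in Het 3M S14. Epsti1 had 0.20 CPM in S15, 38.9 CPM in S9, 5.81 CPM in S2 and at most 2.21 CPM in the other 14 cultures. Lgals3bp, a secreted glycoprotein, had 73.3 CPM in S15, 0.87-fold the median of the others, and was highest in S14 at 153 CPM, S2 at 141 CPM and S7 at 137 CPM. S9 was above the median of the 16 others by more than 10-fold for 4 members, Epsti1, Oas2, Oas3 and Oas1a, and stood at 0.88-fold for Ifit1 and 1.10-fold for Isg15. Both cultures were high for Oas1a, Oas2 and Oas3, and they differed for Isg15, the IFIT genes and Epsti1.

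**Figure D4:**
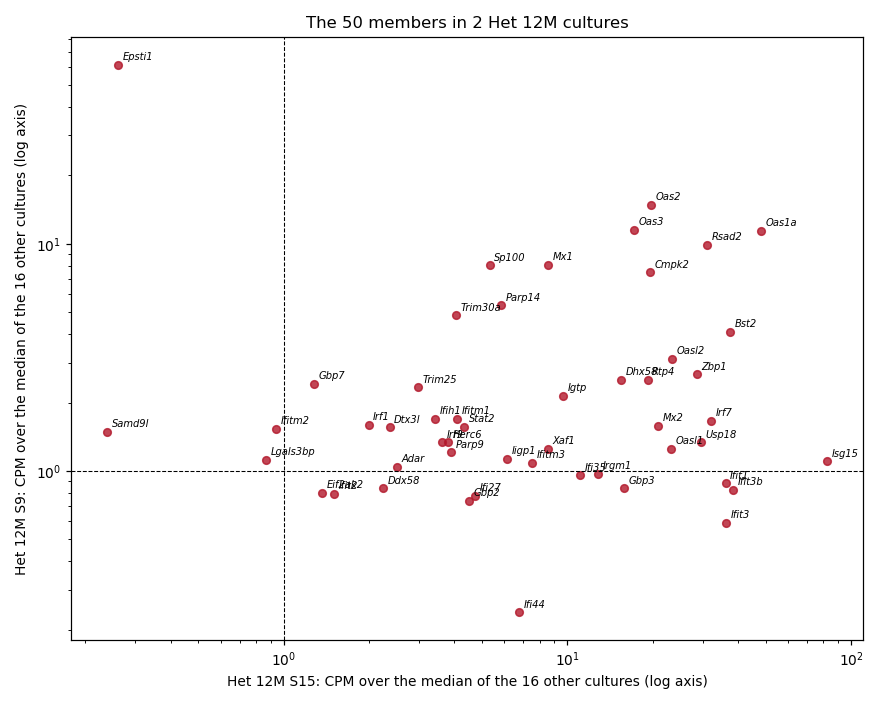
Level of each of the 50 members in Het 12M S15 (horizontal axis) and in Het 12M S9 (vertical axis), each divided by the median of the 16 other cultures, on logarithmic axes with dashed lines at 1. Isg15 lies at 82.6-fold in S15 and 1.10-fold in S9, and Epsti1 at 0.26-fold in S15 and 61.5-fold in S9.

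The first comparison asked how Het differed from WT at 12 months. With edgeR, 0 of the 50 members passed an adjusted p of 0.05, as did 0 of all 14897 genes (0%). Without adjustment, 1 member, Sp100, had p under 0.05, or 2% of the members, against 8.36% of all genes tested. The groups overlapped for all 50 members, while they did not for 1.38% of all genes. The fitted differences were above 0 for 46 of 50 members, with a median of 0.84 on the log2 scale, against 55.7% of all genes and a median of 0.05. The group medians gave another picture, with Het 12M above WT 12M for 20 members and below it for 30, against 47.1% of all genes above. Without S15, 21 members were fitted above 0 and their median was -0.11, against 49.3% of all genes and a median of -0.008.

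Sp100, a component of nuclear bodies, had 12.7, 54.3, 4.25, 36.0, 12.3 and 9.62 CPM in Het 12M S1, S9, S11, S15, S16 and S17, against 9.36, 3.14, 6.99 and 5.29 CPM in WT 12M S2, S6, S7 and S13. S9 and S15 were high and S11 lay inside the WT 12M range. Its fitted log2 difference was 1.82 ± 0.64 (SE), with an edgeR unadjusted p of 0.0117 and an adjusted p of 0.43. It was 1.59 without S15, 1.27 without S9 (unadjusted p = 0.0383) and 0.44 without S9, S15 and S6 (unadjusted p = 0.386). Isg15 was fitted at 2.75 ± 1.35 (adjusted p = 0.619), Irf7 at 1.46 ± 1.11 (0.729), Ifit1 at 1.34 ± 1.21 (0.774), Ifitm3 at 1.17 ± 0.64 (0.648) and Gbp2 at 0.47 ± 0.43 (0.778). Without S15 the differences were -0.60 for Isg15, -0.81 for Irf7, -0.67 for Ifit1 and -0.14 for Gbp2, while Ifitm3 stayed above 0 at 0.076. Ifit2 had the smallest p among the members fitted below 0, at -0.36 ± 0.37 (adjusted p = 0.806).

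At 3 months the same question was asked in 3 Het and 4 WT cultures. With edgeR, 0 members and 0% of all genes passed the adjusted threshold. Without adjustment, 0 members and 1.6% of all genes had p under 0.05, and 0 members and 6.74% of all genes had groups that did not overlap. The fitted differences were above 0 for 47 of 50 members, with a median of 0.56, against 47.5% of all genes and a median of -0.02. By group medians, Het 3M lay above WT 3M for 15 members and below for 35, against 49.6% of all genes above. S14 held the highest Het 3M level of 47 members. The like share over all genes was not counted, and the 2 other cultures, S8 and S10, were the closest pair of the series. Without S14, 9 members were fitted above 0, with a median of -0.52, against 45.2% of all genes and a median of -0.041.

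Among the members with a fitted test at 3 months, Isg15 was at 1.20 ± 1.43 (edgeR adjusted p = 1.00), Ifit1 at 1.00 ± 1.36 (1.00), Irf7 at 0.94 ± 1.24 (1.00), Gbp2 at 0.77 ± 0.50 (1.00) and Ifitm3 at 0.14 ± 0.73 (1.00). Without S14, Ifit1 was at -1.42, Irf7 at -0.87 and Isg15 at -0.54, while Gbp2 stayed above 0 at 0.35. Adar had the smallest p of the 3 members fitted below 0, at -0.18 ± 0.36 (1.00), and had 34.9, 30.5 and 66.2 CPM in Het 3M S8, S10 and S14 against 45.1, 38.8, 54.0 and 60.2 CPM in WT 3M S3, S4, S5 and S12.

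**Figure D5:**
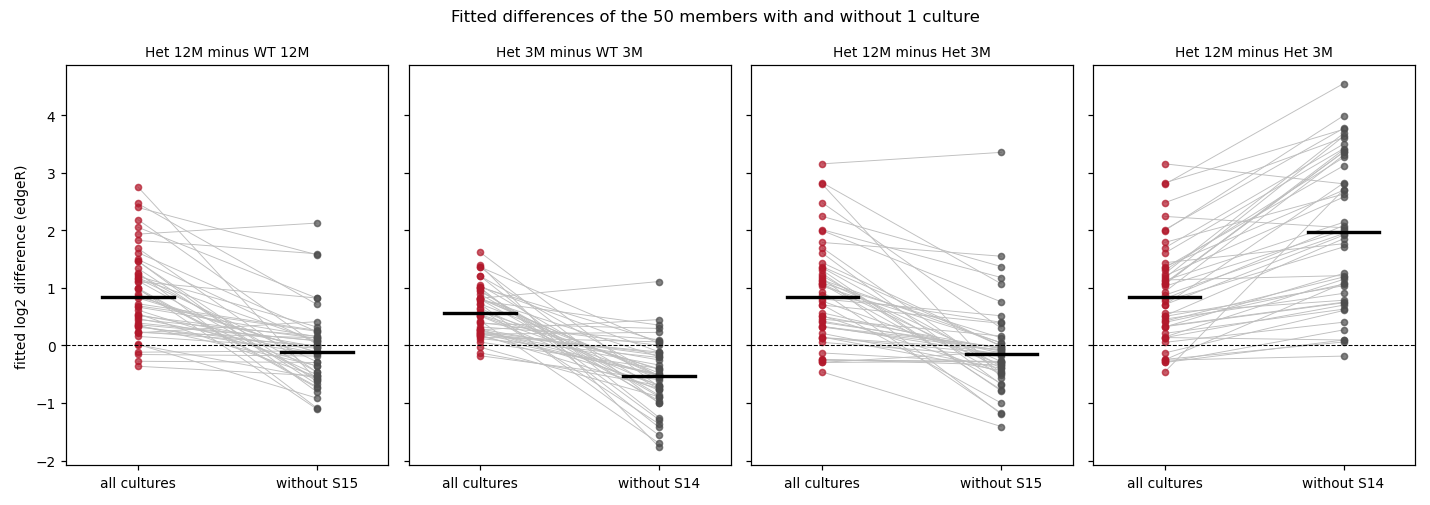
Fitted log2 difference (vertical axis, edgeR) of each of the 50 members with all cultures (red) and without 1 culture (grey), joined by a line per member, in 4 panels, with the median as a bar. The median is 0.84 with all cultures and -0.11 without S15 for Het 12M minus WT 12M, 0.56 and -0.52 without S14 for Het 3M minus WT 3M, and, for Het 12M minus Het 3M, 0.84, -0.15 without S15 and 1.97 without S14.

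The effect of age was compared in each genotype. In Het, 12 against 3 months, edgeR called 0 members and 0% of all genes, Sp100 alone had an unadjusted p under 0.05 against 3.28% of all genes, and 0 members against 1.93% of all genes had groups that did not overlap. The fitted differences were above 0 for 43 of 50 members, with a median of 0.84, against 57.7% of all genes and 0.07, and by group medians Het 12M lay above Het 3M for 46 members, against 51.4% of all genes. This comparison turned on a culture at either age. Without S15, 14 members were fitted above 0 with a median of -0.15, against 54.4% of all genes and 0.03. Without S14, 49 members were, with a median of 1.97, against 60.6% of all genes and 0.11. Sp100 was fitted at 1.79 ± 0.72 (edgeR unadjusted p = 0.0241, adjusted p = 0.946), Isg15 at 2.80 ± 1.53 (0.946), Irf7 at 1.60 ± 1.25 (0.946), Ifit1 at 1.25 ± 1.34 (0.946), Ifitm3 at 1.14 ± 0.71 (0.946) and Gbp2 at 0.21 ± 0.47 (0.966). Lgals3bp had the smallest p below 0, at -0.30 ± 0.39 (0.947). Sp100 had 3.13, 3.80 and 12.0 CPM in Het 3M S8, S10 and S14. Its fitted difference was 1.22 without S9, with an unadjusted p of 0.0673, 1.55 without S15 (0.0470) and 2.63 without S14 (0.00703), and it was 0.61 without S9, S15 and S6 (0.241).

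In WT, 12 against 3 months, edgeR again called 0 members and 0% of all genes. Without adjustment, 0 members and 8.22% of all genes had p under 0.05, and 0 members and 8.21% of all genes had groups that did not overlap. The fitted differences were above 0 for 44 of 50 members, with a median of 0.54, against 53.8% of all genes and 0.04, and group medians were higher in WT 12M for 44 members, against 51.6% of all genes. WT 12M was split, S2 and S7 both being above S6 and S13 for 44 of 50 members, against 28.3% of all genes. These 2 pairs of cultures were picked after their levels were seen, so the split is a description. For Ifit3 the lower of S2 and S7 was 6.39-fold the higher of S6 and S13, for Ifit1 5.63-fold, for Usp18 4.43-fold and for Irf7 3.81-fold. S2 and S7 also had more macrophage marker RNA than S6 and S13, with sums of 2840 and 1299 CPM against 47.0 and 68.8 CPM, and more chondrocyte marker RNA, with 11181 and 22213 CPM against 3073 and 4645 CPM. Cell cycle marker RNA went the other way, with sums of 89.2 and 117 CPM in S2 and S7 against 573 and 446 CPM in S6 and S13. The part of these marker groups in this split was not tested.

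Oasl2 had the smallest p of the members fitted above 0 in this comparison, with 74.5, 9.05, 37.8 and 15.7 CPM in WT 12M S2, S6, S7 and S13 against 12.9, 12.0, 13.1 and 4.24 CPM in WT 3M S3, S4, S5 and S12. Its fitted difference was 1.68 ± 1.12 (edgeR adjusted p = 0.669). Samd9l, below 0, was at -0.64 ± 0.63 (0.745). Isg15 was at 1.25 ± 1.35 (0.767), Irf7 at 1.08 ± 1.17 (0.768), Ifit1 at 0.91 ± 1.28 (0.816), Gbp2 at 0.51 ± 0.47 (0.735) and Ifitm3 at 0.11 ± 0.68 (0.965). Limma voom with weights that discount outlying cultures called 5 of the 50 members higher in WT 12M, against 10.1% of all genes, namely Dhx58, Oasl2, Gbp3, Gbp7 and Igtp, and DESeq2 called 0. In the other comparisons both tools called 0 members.

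Whether the genotype difference changes with age was tested as an interaction. EdgeR called 0 members and 0% of all genes, with 0 members and 5.76% of all genes at an unadjusted p under 0.05. The fitted interaction was above 0 for 37 of 50 members, with a median of 0.29, against 56.3% of all genes and 0.08. Without S15 it was above 0 for 10 members, with a median of -0.59, against a median of 0.01 over all genes. Sp100 had the smallest p of the members, at 1.85 ± 0.96 with an edgeR unadjusted p of 0.0705 and an adjusted p of 0.888.

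The wider pathway was read from lists that are not members. Of 21 interferon genes, 15 had no count in any culture and 0 passed the filter on low counts. Their summed level was at most 0.53 CPM, in S15, and 0.40 CPM in S14, so interferon transcripts were not detectable beyond a few counts in the cultures with high members. The 9 receptor and kinase genes all passed and had counts throughout, though Ifnlr1 was at 0.15 to 2.85 CPM. Their sum was 676 CPM in S15, the lowest of the 17, and 1345 CPM in S9, the highest. Jak1 made the largest part of the S15 sum, at 242 CPM against 283 to 493 CPM in the others. The low sum did not hold for each gene, as Ifnar2 had 110 CPM in S15 against 61.0 to 144 CPM.

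Immunoproteasome and peptide loading genes were also high in S15. Psmb8 and Psmb10, catalytic subunits of the immunoproteasome, had 243 and 276 CPM in S15 against at most 69.1 and 59.8 CPM in the others, and both of those were in S9. The peptide transporter genes Tap1 and Tap2 had 181 and 162 CPM in S15 against at most 79.2 and 60.3 CPM. B2m, the light chain of MHC class I, was highest in S9 at 2868 CPM, followed by S15 at 1372 CPM. The chemokine genes Cxcl10 and Ccl5 had 15.7 and 11.7 CPM in S15 and at most 4.22 and 6.93 CPM in the others. The sensing adaptor Tmem173 (STING) had 77.1 CPM in S15 against 12.1 to 47.4 CPM, and Irf3, the factor that starts interferon transcription, had 136 CPM in S15 against 21.4 to 71.2 CPM.

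Of the 45 tested genes of these lists, 0 passed the adjusted edgeR threshold in any comparison, in either direction. Without adjustment, 2 of the 45 had p under 0.05 between genotypes at 12 months, 0 at 3 months, 0 for age in Het, 3 for age in WT and 2 for the interaction, against 8.36%, 1.6%, 3.28%, 8.22% and 5.76% of all genes. Socs1, an inhibitor of the Jak kinases, was at 5.74 CPM on average in Het 12M and 11.6 CPM in WT 12M, with a fitted difference of -1.01 ± 0.34 (edgeR unadjusted p = 0.00966, adjusted p = 0.425) and groups that did not overlap. Socs1 was also among the 3 for age in WT, averaging 11.6 CPM in WT 12M and 6.44 CPM in WT 3M, at 0.84 ± 0.38 (edgeR unadjusted p = 0.0436, adjusted p = 0.592), and its interaction was -1.30 ± 0.54 (adjusted p = 0.781). Tbk1, a kinase that activates Irf3, averaged 41.1 CPM in Het 12M and 28.4 CPM in WT 12M, at 0.55 ± 0.23 (edgeR adjusted p = 0.54). S9 had 68.7 CPM of Tbk1 and the other Het 12M cultures 30.4 to 39.6 CPM, against 22.3 to 32.8 CPM in WT 12M. The 10 antigen presentation genes were all fitted above 0 in the 4 comparisons between groups, against 55.7% of all genes for genotype at 12 months, 47.5% at 3 months, 57.7% for age in Het and 53.8% for age in WT. Their median was 0.68 for genotype at 12 months, but without S15 it was -0.057 with 5 of 10 above 0, and by group medians 2 of the 10 were higher in Het 12M than in WT 12M. At 3 months the median was 0.44, and without S14 it was 0.25 with 8 of 10 above 0. Group medians were higher in Het 3M than in WT 3M for 8 of the 10. For age in Het the median was 0.70, and without S15 it was 0.21 with 7 of 10 above 0. Group medians were higher in Het 12M than in Het 3M for 9 of the 10. For age in WT the median was 0.61, and group medians were higher in WT 12M for 8 of the 10.

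Markers of other cells did not follow the members in 1 direction. S15, highest for the members, had the lowest macrophage and myeloid sum of the 17 cultures at 36.6 CPM, with Ptprc and Adgre1 at 0 CPM, and S14 had 151 CPM against 1185 and 1346 CPM in S8 and S10. S9, with 37396 CPM, had a mean member level below those of S15, S14 and S2. Of 6 markers of plasmacytoid dendritic cells, which make much interferon in blood, 2 passed the filter on low counts. Siglech and Klk1 were at 0 CPM in all 17 cultures, Ccr9 and Pacsin1 were at most 0.44 and 0.46 CPM, and Cox6a2 was present in all 17 at 0.17 to 6.53 CPM, with 0.40 CPM in S15. Il3ra, which other cells also express, ranged from 16.7 to 148 CPM and was highest in S15. The sum over the 6 was 31.1 to 149 CPM in Het 12M, 36.7 to 96.2 CPM in WT 12M, 48.3 to 76.96 CPM in Het 3M and 19.3 to 57.8 CPM in WT 3M. The part of these markers in the members' levels was not tested. Chondrocyte markers summed to 17141 CPM in S14, against 4956 and 3810 CPM in S8 and S10, and to 2836 CPM in S15. The part of cell makeup or of the low COX1 level of S15 in the members' levels was not tested.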

How the data were processed

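RNA was taken from cultured primary stromal cells and made into libraries with a TruSeq kit (RNA Library Preparation v2) that does not mark strand, per the labels' protocols. The authors deposited raw read counts per Entrez gene, made with Subread and featureCounts on mm10 per the submitters' processing notes; versions and settings are not given in the sources used here. Each of the 17 cultures had 4 technical replicate columns, which were summed; all 68 columns were mapped. Symbols were matched for 25275 rows through RefSeq (GRCm38.p6). The series text names 3 biological samples for a group, but by label the groups hold 3, 4 or 6 cultures.

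EdgeR 4.0.16 (R 4.3.3) fitted all cultures with 1 term per group after TMM scaling and filterByExpr by group, which kept 14897 genes. The quasi-likelihood F-test was two-sided, with Benjamini-Hochberg adjustment over all genes and a threshold of 0.05. The biological coefficient of variation was 0.512. The scripts were tested on simulated data. Alternatives used DESeq2 1.42.0, limma 3.58.1, other scalings, filters, covariates and left-out cultures. Fitted values are given for Irf7, Isg15, Ifit1, Ifitm3 and Gbp2, and for the member with the smallest p in each direction; genes of the pathway lists were named after their values were seen. The members and lists were chosen with earlier results of these data known.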

Additional observations from a re-analysis of the deposited data

Results flagged for a closer look

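Among the members with a printed fit, 6 values stood far from the rest of their group by Dixon's test on log2 CPM, which chance alone flags in about 1 of 20 groups. In Het 12M, S15 lay above the 5 other cultures for Isg15 at 9.997, Ifitm3 at 11.70, Gbp2 at 7.15 and Adar at 6.83. In WT 12M, S6 lay below the 3 others for Ifitm3 at 7.71, and in WT 3M, S12 lay below the 3 others for Oasl2 at 2.12. Over all 50 members, 11 were set apart in this way in Het 12M, each time with S15 highest (22%), against 13.2% of all 14897 genes set apart by any culture and 4.48% with S15 highest. In WT 12M 3 of the 50 members (6%) were set apart, against 4.4% of all genes, and in WT 3M 3 of the 50 (6%), against 8.94%.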

How the results depend on the processing

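No paired analysis was possible because the replicate numbers in the labels mark technical replicates of 1 culture and the S numbers are not shared between groups. In Het 12M against WT 12M, the median member log2 difference of 0.84 became -0.41 with voom, -0.60 without S9, S15 and S6, and -0.079 without S15 and S14, a pair chosen after seeing the data; leaving out 1 culture gave -0.11 (without S15) to 1.22. In Het 3M against WT 3M, 0.56 became -0.28 with voom and -0.52 without S15 and S14, with -0.52 (without S14) to 0.86 for 1 culture left out. For Het age, 0.84 became -0.32 without S9, S15 and S6, with -0.15 (without S15) to 1.97 (without S14). Without S14, 18 members had an edgeR unadjusted p under 0.05, against 1.81% of all genes, and 0 an adjusted one. S14 was the Het 3M culture with the highest level of most members. Leaving it out thus lowers Het 3M for these same genes, so the 18 cannot be read as an age difference. For the interaction, 0.29 became -0.11 with voom, -1.16 without S9, S15 and S6 and -0.073 with S8 and S10 summed, with -0.59 (without S15) to 1.26. For WT age, leaving out 1 culture gave 0.19 to 0.77, all above 0. With the myeloid markers as a term, the median was 0.43 for genotype at 12 months, with 40 of 50 members above 0 in place of 46, and 0.051 for the interaction, with 27 in place of 37. The cause of these changes was not tested.

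EdgeR called 0 genes in each comparison. DESeq2 and voom called 106 and 171 genes for Het 12M against WT 12M, 53 and 1508 for WT age (5 of them members with voom), 1 and 1 for Het age, and 35 and 939 for the interaction, and voom called 1292 for Het 3M against WT 3M. Without S15 and S14, edgeR called 1 gene for genotype at 12 months and 3 for WT age, and without S9, S15 and S6 it called 2 for WT age. Leaving out 1 culture gave 0 to 2 genes for genotype at 12 months and 0 to 1 for WT age.

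Fitted differences of named members also changed sign. For Het 12M against WT 12M, voom, the fit without S9, S15 and S6 and the fit without S15 and S14 gave -1.08, -1.20 and -0.79 for Irf7, -0.75, -0.74 and -0.59 for Isg15, -0.96, -0.90 and -0.66 for Ifit1, and -0.18, -0.16 and -0.13 for Gbp2; Ifitm3 was -0.18 without S9, S15 and S6, and Ifit1 was -0.0371 with the myeloid markers as a term. Leaving out 1 culture gave -0.81 to 1.88 for Irf7, -0.60 to 3.15 for Isg15, -0.67 to 2.04 for Ifit1 and -0.14 to 0.63 for Gbp2. For Het 3M against WT 3M, voom and the fit without S15 and S14 gave -0.55 and -0.87 for Irf7, -0.81 and -0.54 for Isg15, and -1.21 and -1.42 for Ifit1; voom gave -0.27 for Ifitm3, and Adar was 0.0059 with S8 and S10 summed. Leaving out 1 culture gave -0.87 to 1.37 for Irf7, -0.54 to 1.66 for Isg15, -1.42 to 1.69 for Ifit1, -0.13 to 0.55 for Ifitm3 and -0.60 to 0.012 for Adar. For WT age, Ifitm3 was -0.11 with voom and -0.17 to 0.50 with 1 culture left out. For Het age, the fit without S9, S15 and S6 gave -0.77 for Irf7, -0.47 for Isg15, -0.64 for Ifit1, -0.0073 for Ifitm3 and -0.30 for Gbp2, and Lgals3bp was 0.14 without S15 and S14. Leaving out 1 culture gave -0.68 to 3.42 for Irf7, -0.56 to 4.55 for Isg15, -0.77 to 3.68 for Ifit1, -0.40 to 0.63 for Gbp2 and -0.50 to 0.094 for Lgals3bp. Members at a few CPM, such as Mx1 and Oas3, rest on few counts.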
